A study of Mus musculus with 9 samples.

Results

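A set of 5 miRNAs known from inflammation and lymphocytes was followed in liver exosomes: mmu-miR-155-5p, mmu-miR-146a-5p, mmu-miR-146b-5p, mmu-miR-150-5p and mmu-miR-342-3p, written below without the species prefix. They were picked by name from a table of 722 miRNA entries, where all 5 were listed, and all 5 passed the low-count filter that left 248 entries for testing. Small RNA had been sequenced from exosomes of mouse livers in 9 libraries, 3 for each of 3 groups. KO HFFC mice carried floxed Hsp90ab1 alleles (the gene of Hsp90β) together with Albumin-Cre, which deletes the gene in hepatocytes and leaves it in the other cells of the liver, and ate the HFFC diet, which is rich in fat, fructose and cholesterol. Flox HFFC mice carried the same floxed alleles with Hsp90β intact and ate the same diet. Flox chow mice carried the floxed alleles and ate chow. Every group thus carried the floxed alleles, and a knockout group on chow was not part of the series. Strain and age are not given in the labels, and the study counts each library as 1 mouse.

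miRNAs are short RNAs that silence mRNAs matching their seed, the bases near the 5′ end. Transcription of miR-155 and of miR-146a is induced by NF-κB, the central transcription factor of inflammation. miR-155 promotes inflammatory responses of macrophages and lymphocytes, whereas miR-146a and miR-146b target the signalling adaptors Traf6 and Irak1 and so restrain NF-κB. miR-150 is abundant in mature B, T and NK lymphocytes and targets Myb. miR-342 is transcribed with its host gene Evl and is expressed in several leukocyte types.

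The mature sequences show which members can share targets and which reads can be confused. They were found for 4 of the 5 members in RefSeq (GRCm38.p6), the exception being miR-150-5p. They are given 5′ to 3′ with the seed, bases 2 to 8, in capitals.
miR-155-5p: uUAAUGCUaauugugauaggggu
miR-146a-5p: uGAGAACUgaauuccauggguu
miR-146b-5p: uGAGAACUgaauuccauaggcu
miR-342-3p: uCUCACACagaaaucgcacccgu
miR-146a-5p and miR-146b-5p had the same seed, and each was the only other one of the 1679 mature miRNAs in that table to carry it. The seeds of miR-155-5p and miR-342-3p were shared with 0 other entries. Over 22 bases the miR-146 pair was identical at 20, with the differences G18A and U21C (the miR-146a-5p base, the position counted from the 5′ end, then the miR-146b-5p base). A read that stops before position 18 fits both, and how such reads were counted is not stated, so the level of the rarer miR-146b-5p is uncertain.

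The 5 miRNAs come from 5 chromosomes (GRCm38, GENCODE M21). The miR-155 hairpin lies within an exon of the lincRNA gene Mir155hg (chr16:84714140-84714204, plus strand). That of miR-342 is intronic in Evl (chr12:108658620-108658718, plus strand), and that of miR-146b is intronic in Mfsd13a (chr19:46342762-46342870, plus strand). The hairpins of miR-146a (chr11:43374397-43374461, minus strand) and miR-150 (chr7:45121757-45121821, plus strand) overlapped no other annotated gene. The hairpins that carry the members with the largest diet differences are shown with the arms that have an entry in the table in capitals.
Mir155 hairpin: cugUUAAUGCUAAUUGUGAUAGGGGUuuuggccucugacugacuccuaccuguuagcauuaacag
Mir342 hairpin: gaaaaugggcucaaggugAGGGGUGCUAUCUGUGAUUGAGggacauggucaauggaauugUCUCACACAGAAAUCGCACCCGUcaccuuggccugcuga
Both arms of miR-342 had an entry, whereas no entry was listed for the opposite arms of the other 4. miR-342-5p held 4, 2 and 0 counts in KO HFFC, 3, 10 and 1 in flox HFFC, and 2, 7 and 2 in flox chow. It did not pass the filter, and its count was below that of miR-342-3p in every library.

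The libraries held 218256 to 681286 miRNA counts. The fewest were in flox chow replicate 3 and the next fewest, 293708, in flox HFFC replicate 1, so members with low counts rested on little there. The deposited values imply 2.49e+07 to 2.76e+07 tags a library. The miRNA counts made up only 0.849% of them in flox chow replicate 3 and up to 2.61% in flox chow replicate 2. All CPM and shares below rest on that small and uneven part. Flox chow replicate 3 also stood apart in skeletal muscle miRNAs, with 1029 counts of miR-1a-3p against 25 to 64 in the other libraries. The hepatocyte markers took 250984 to 422595 of every 1000000 miRNA counts. The leukocyte markers miR-223 and miR-142a, both arms of each, were all listed and together took 196 to 281 per 1000000 in KO HFFC, 180 to 313 in flox HFFC and 160 to 310 in flox chow. Leukocyte miRNA was thus detected in every library at a low level, and the sum overlapped between the groups. In such mixed vesicle preparations fewer vesicles of a cell type and less of a miRNA per vesicle cannot be told apart.

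The members differed in level by orders of magnitude. miR-146a-5p held 67445 of the counts over the 9 libraries, which was 95.7% of the counts of all 5 members, against 1781 for miR-150-5p, 629 for miR-155-5p, 491 for miR-342-3p and 151 for miR-146b-5p. In CPM (counts per 1000000 after scaling by TMM, trimmed mean of M values) the order was miR-146a-5p, then miR-150-5p, with miR-146b-5p last, in all 9 libraries. The places of miR-155-5p and miR-342-3p changed between libraries. miR-155-5p was above miR-342-3p in 5 of the 9, so these neighbours were not separated beyond their spread. By count, miR-146a-5p ranked 13 to 19 among all entries of a library, miR-150-5p 63 to 94, miR-155-5p 96 to 168, miR-342-3p 96 to 160 and miR-146b-5p 161 to 251.

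miR-155-5p had its higher values in flox HFFC and its lower ones in flox chow. Its counts were 48, 109 and 63 in KO HFFC, 55, 141 and 66 in flox HFFC, and 52, 83 and 12 in flox chow. In CPM these were 105, 203 and 188 in KO HFFC, 209, 252 and 160 in flox HFFC, and 114, 112 and 67.9 in flox chow. Each flox HFFC library lay above each flox chow library, and KO HFFC replicate 1 lay among the chow libraries. The mean was 165 ± 53.1 CPM in KO HFFC, 207 ± 46.1 in flox HFFC and 97.9 ± 26.0 in flox chow (SD, n = 3 each).

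miR-342-3p had its lowest 3 values in the chow libraries. It held 75, 58 and 64 counts in KO HFFC, 74, 76 and 43 in flox HFFC, and 30, 58 and 13 in flox chow. The CPM were 164, 108 and 191 in KO HFFC, 281, 136 and 104 in flox HFFC, and 65.6, 78.4 and 73.5 in flox chow. All 6 libraries of HFFC-fed mice, of either genotype, were above the highest chow library. The spread was wide on the diet and narrow on chow, with means of 154 ± 42.2 in KO HFFC, 174 ± 94.2 in flox HFFC and 72.5 ± 6.46 in flox chow (SD, n = 3 each).

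miR-146a-5p, the most abundant member, stayed within about the same range in the 3 groups. Its counts were 9208, 9836 and 3623 in KO HFFC, 4536, 12681 and 5305 in flox HFFC, and 8500, 11475 and 2281 in flox chow. In CPM it was at 20083, 18352 and 10813 in KO HFFC, 17230, 22697 and 12883 in flox HFFC, and 18580, 15506 and 12901 in flox chow. The groups overlapped fully, with the lowest and second lowest values in KO HFFC replicate 3 and flox HFFC replicate 3. As a share of all miRNA counts it was 1.84% ± 0.567 in KO HFFC, 1.65% ± 0.402 in flox HFFC and 1.49% ± 0.390 in flox chow (SD, n = 3 each).

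miR-146b-5p, the other miRNA of that seed, was near the limit of these libraries. It held 36, 17 and 10 counts in KO HFFC, 17, 24 and 9 in flox HFFC, and 7, 25 and 6 in flox chow. In CPM it was at 78.5, 31.7 and 29.8 in KO HFFC, 64.6, 43.0 and 21.9 in flox HFFC, and 15.3, 33.8 and 33.9 in flox chow. The groups overlapped. Its share in flox chow replicate 3 was 0.00275%, with a 95% Wilson interval of 0.00126% to 0.00600%, and such intervals cover counting error only.

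miR-150-5p, the lymphocyte member, varied widely within flox chow and KO HFFC and little within flox HFFC. It held 292, 189 and 144 counts in KO HFFC, 103, 247 and 186 in flox HFFC, and 147, 338 and 135 in flox chow. In CPM it was at 637, 353 and 430 in KO HFFC, 391, 442 and 452 in flox HFFC, and 321, 457 and 764 in flox chow. The lowest and the highest value both belonged to flox chow, so the other groups lay within its range.

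**Figure D1:**
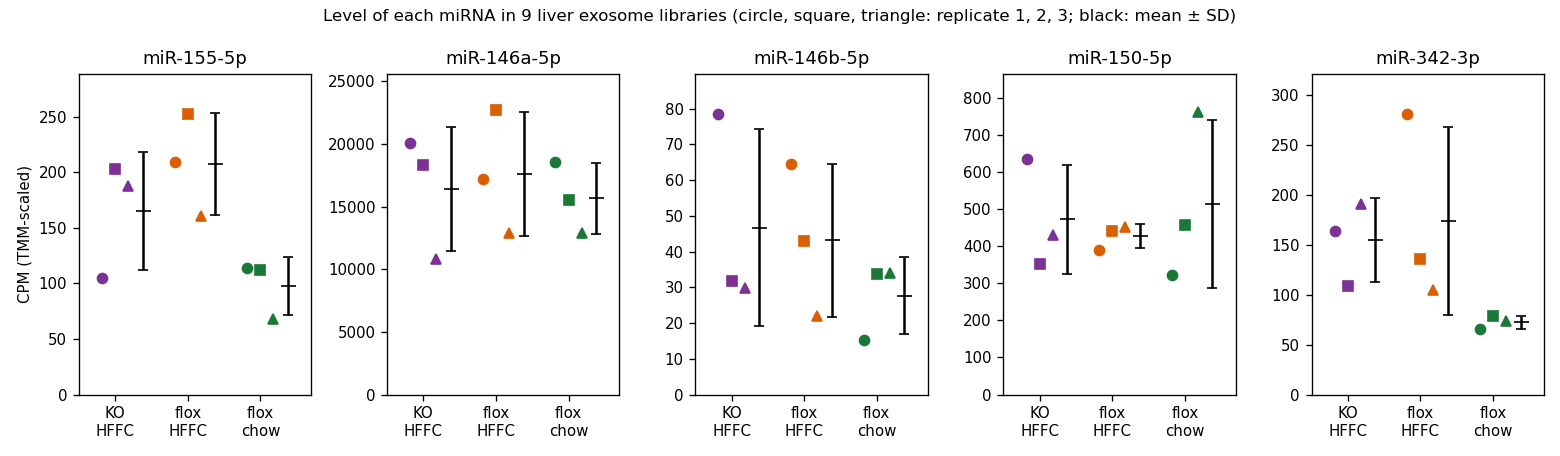
CPM (TMM-scaled, linear axis from 0) of each miRNA in KO HFFC, flox HFFC and flox chow libraries, with symbols for replicates and a black mean ± SD. miR-342-3p lies at 104 to 281 CPM in the 6 HFFC libraries and at 65.6 to 78.4 in flox chow, miR-155-5p separates flox HFFC from flox chow, and the other 3 overlap.

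The first comparison asked what the HFFC diet changes in floxed mice. miR-342-3p had a log2 fold change of 1.25 ± 0.49 (SE), with a 95% interval from 0.29 to 2.21, and miR-155-5p one of 1.06 ± 0.45, from 0.18 to 1.94. Neither passed edgeR's quasi-likelihood test after Benjamini-Hochberg adjustment over the 248 entries (adjusted p = 0.917 and 0.982, unadjusted p = 0.0259 and 0.0357). Ordered by p they were numbers 7 and 9 of the 248. The remaining members were at 0.63 ± 0.69 for miR-146b-5p, 0.17 ± 0.30 for miR-146a-5p and −0.26 ± 0.44 for miR-150-5p. None of them passed either (edgeR adjusted p = 0.985 for each).

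Across the table, edgeR called 0 of 248 entries in this comparison, which is 0%, and so 0 of the 5 members. DESeq2 and limma-voom also called 0. At an unadjusted p under 0.05 stood 11 entries, 4.44%, and 2 members. Groups did not overlap for 4.84% of entries with flox HFFC higher, which held for 2 of the 5 members, and for 3.63% with flox HFFC lower, which held for 0 members. A positive log2 fold change was found for 4 of the 5 members and for 48.4% of entries. The median log2 fold change was 0.63 over the members and −0.02 over all tested entries.

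Shares of miRNA counts, which use the library total and no TMM factor, also put flox HFFC above flox chow for miR-155-5p and miR-342-3p. miR-155-5p took 0.0195% ± 0.00354 of miRNA counts in flox HFFC and 0.00946% ± 0.00351 in flox chow (SD, n = 3 each), with an exact two-sided permutation p of 0.1. miR-342-3p took 0.0161% ± 0.00790 in flox HFFC and 0.00688% ± 0.00142 in flox chow, again with an exact p of 0.1. That is the smallest p that 3 against 3 libraries allow, so no such test could pass 0.05. For miR-146a-5p, miR-146b-5p and miR-150-5p the exact p was 0.7, 0.4 and 0.6.

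Single libraries carried part of both differences. Without flox HFFC replicate 1, whose miR-342-3p value of 281 CPM was the highest of all, the log2 fold change of miR-342-3p was 0.74. Without flox chow replicate 3, whose 12 counts were the lowest for miR-155-5p, that of miR-155-5p was 0.88. Without both libraries, which also had the fewest counts, miR-342-3p was at 0.75 and miR-155-5p at 0.86, with edgeR adjusted p of 1 for each. This last setting was chosen after the data had been seen.

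**Figure D2:**
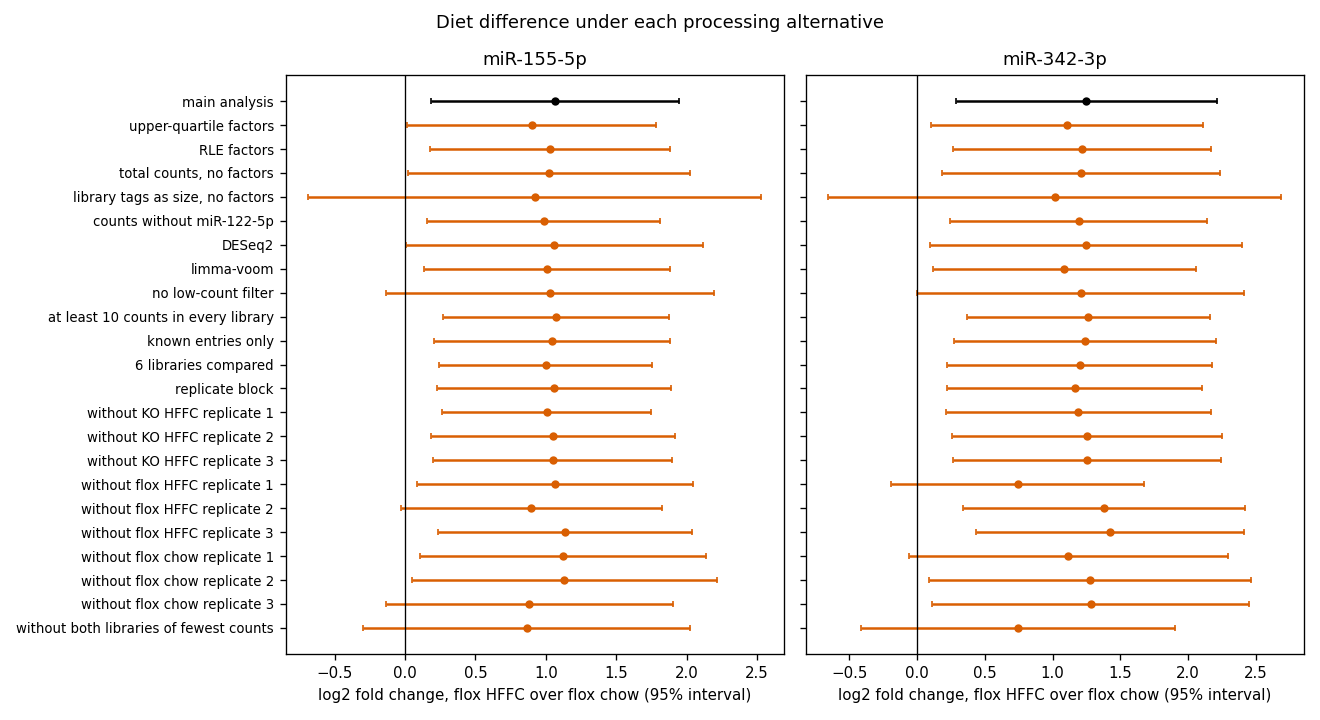
Log2 fold change of flox HFFC over flox chow with its 95% interval for miR-155-5p and miR-342-3p, for the main analysis (black) and each alternative setting (orange). All points lie above 0, between 0.86 and 1.13 for miR-155-5p and between 0.74 and 1.43 for miR-342-3p, and some intervals include 0.

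The comparison of genotypes within the HFFC diet asked which miRNAs depend on Hsp90β in hepatocytes. No member separated the genotypes. The log2 fold changes of KO HFFC over flox HFFC were −0.33 ± 0.44 (SE) for miR-155-5p, −0.17 ± 0.48 for miR-342-3p, −0.10 ± 0.30 for miR-146a-5p, 0.14 ± 0.44 for miR-150-5p and 0.13 ± 0.67 for miR-146b-5p. The edgeR adjusted p lay between 0.898 and 0.954. Groups overlapped for all 5 members, and 2 of the 5 had a positive value, against 48.4% of entries. The background of entries whose groups did not overlap was 6.85% with KO HFFC higher and 7.26% with KO HFFC lower.

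The intervals, which are approximate and somewhat narrow for so few libraries, show differences that remain possible. For miR-155-5p the 95% interval ran from −1.19 to 0.54, for miR-342-3p from −1.10 to 0.77, and for miR-146a-5p, the best counted member, from −0.68 to 0.48. Differences of either sign within these bounds therefore remained compatible with 3 libraries a group, also for miR-146a-5p with its 2281 to 12681 counts a library. The bounds are no limit of detection. The sign itself was not stable. It reversed under 5 alternatives for miR-146a-5p, 4 for miR-342-3p, 2 for miR-146b-5p and 1 for miR-150-5p, and miR-342-3p was at 0.36 without flox HFFC replicate 1. By share of miRNA counts, miR-146a-5p was at 1.84% ± 0.567 in KO HFFC and 1.65% ± 0.402 in flox HFFC (SD, n = 3 each, exact permutation p = 0.8), the opposite sign of its fitted value. Likewise miR-342-3p was at 0.0171% ± 0.00414 in KO HFFC and 0.0161% ± 0.00790 in flox HFFC (SD, n = 3 each, exact permutation p = 0.8). Over the table edgeR called 0 of 248 entries (0%), with 20 (8.06%) at an unadjusted p under 0.05, none of them a member. limma-voom called 0 and DESeq2 called 5, none of them a member.

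Set against flox chow, KO HFFC had a log2 fold change of 1.08 ± 0.49 (SE) for miR-342-3p, with a 95% interval from 0.12 to 2.04. It was higher in every KO HFFC library, and it did not pass (edgeR adjusted p = 0.377, unadjusted p = 0.0471). miR-146b-5p was at 0.77 ± 0.68, miR-155-5p at 0.74 ± 0.45, miR-146a-5p at 0.07 ± 0.30 and miR-150-5p at −0.11 ± 0.44, with edgeR adjusted p of 0.612 to 0.925. miR-342-3p was the 1 member of 5 whose groups did not overlap, against 8.06% of entries with KO HFFC higher and 9.68% with KO HFFC lower. By share it took 0.0171% ± 0.00414 in KO HFFC and 0.00688% ± 0.00142 in flox chow (SD, n = 3 each, exact permutation p = 0.1). A positive log2 fold change was found for 4 of the 5 members and for 47.6% of entries. The share of miR-150-5p had the opposite sign of its fitted value, with 0.0524% ± 0.0147 in KO HFFC and 0.0472% ± 0.0159 in flox chow (SD, n = 3 each, exact permutation p = 0.8). Over the table edgeR called 0 of 248 (0%), with 32 (12.9%) at an unadjusted p under 0.05, of which 1 was a member. limma-voom called 0 and DESeq2 called 6, again no member. The effects of feeding and of the deletion cannot be told apart here, and since the same 3 chow libraries serve as in the diet comparison, the values do not stand on their own.

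The sum of the epithelial markers also lay higher in KO HFFC than in flox chow, without overlap. The 5 epithelial miRNAs of the miR-200 family, all listed, summed to 1488 to 2208 per 1000000 miRNA counts in KO HFFC, 580 to 2334 in flox HFFC and 568 to 1095 in flox chow. Most of that sum was miR-429-3p, with 768, 464 and 474 counts in KO HFFC and 302, 533 and 89 in flox chow. As shares of miRNA counts, miR-429-3p and miR-141-3p did not overlap between KO HFFC and flox chow, whereas the other 3 of the 5 markers did. The mesenchymal marker miR-199a-5p, higher in KO HFFC, and the erythroid marker miR-486b-5p, lower, did not overlap either. In CPM 8.06% of all tested entries did not overlap with KO HFFC higher, and 9.68% with KO HFFC lower. Between KO HFFC and flox HFFC, only the hepatocyte marker miR-122-3p did not overlap by share. It took 4132 to 4955 per 1000000 miRNA counts in KO HFFC and 2651 to 3772 in flox HFFC. The other 4 hepatocyte markers overlapped by share, and in CPM miR-122-3p overlapped as well (0.32 ± 0.34, edgeR adjusted p = 0.864). The part of these markers in the values of the members was not tested.

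The sums of the leukocyte markers overlapped between all groups, but in CPM a single marker did not in each of the KO HFFC comparisons. miR-142a-3p was at 15.3, 20.5 and 32.8 CPM in KO HFFC and 41.8, 34.0 and 63.1 in flox HFFC, lower in every KO HFFC library, with a log2 fold change of −1.02 ± 0.65 (SE, edgeR adjusted p = 0.689). In the same comparison miR-142a-5p was at 0.03 ± 0.43 and miR-223-3p at −0.60 ± 0.74, and both overlapped. Over all tested entries, 7.26% did not overlap with KO HFFC lower. miR-142a-5p was at 96.0, 91.4 and 104 CPM in KO HFFC and 118, 112 and 119 in flox chow, again lower in every KO HFFC library, with −0.26 ± 0.43 (edgeR adjusted p = 0.867). Against flox chow miR-142a-3p was at −1.26 ± 0.65 and miR-223-3p at 0.17 ± 0.75, and both overlapped. Here 9.68% of all tested entries did not overlap with KO HFFC lower. As shares of miRNA counts all leukocyte markers overlapped in both comparisons. Their part in the members' values was not tested.

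**Figure D3:**
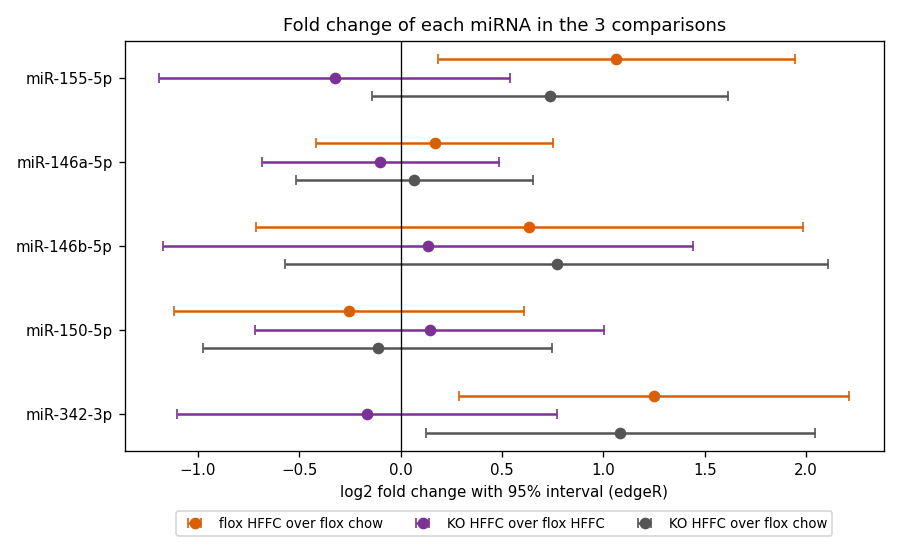
Log2 fold change with 95% interval (edgeR) of each miRNA in the 3 comparisons. The intervals of miR-155-5p (0.18 to 1.94) and miR-342-3p (0.29 to 2.21) for flox HFFC over flox chow, and of miR-342-3p (0.12 to 2.04) for KO HFFC over flox chow, lie above 0 before any adjustment. All other intervals include 0.

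Ratios between members of one library do not depend on scaling. The ratio of miR-342-3p to miR-150-5p counts was 0.257, 0.307 and 0.444 in KO HFFC, 0.718, 0.308 and 0.231 in flox HFFC, and 0.204, 0.172 and 0.0963 in flox chow. It was higher in all 6 HFFC libraries than in any chow library. The ratio of miR-155-5p to miR-150-5p was 0.164, 0.577 and 0.438 in KO HFFC, 0.534, 0.571 and 0.355 in flox HFFC, and 0.354, 0.246 and 0.0889 in flox chow. Here the lowest flox HFFC value and the highest flox chow value were almost equal, and KO HFFC spanned both. miR-146a-5p exceeded miR-146b-5p by 256-fold to 1214-fold, with groups that overlapped. These ratios are a description and carry no test. The ratio of miR-342-3p to miR-150-5p was not among those planned, and it reuses the miR-342-3p counts given above.

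**Figure D4:**
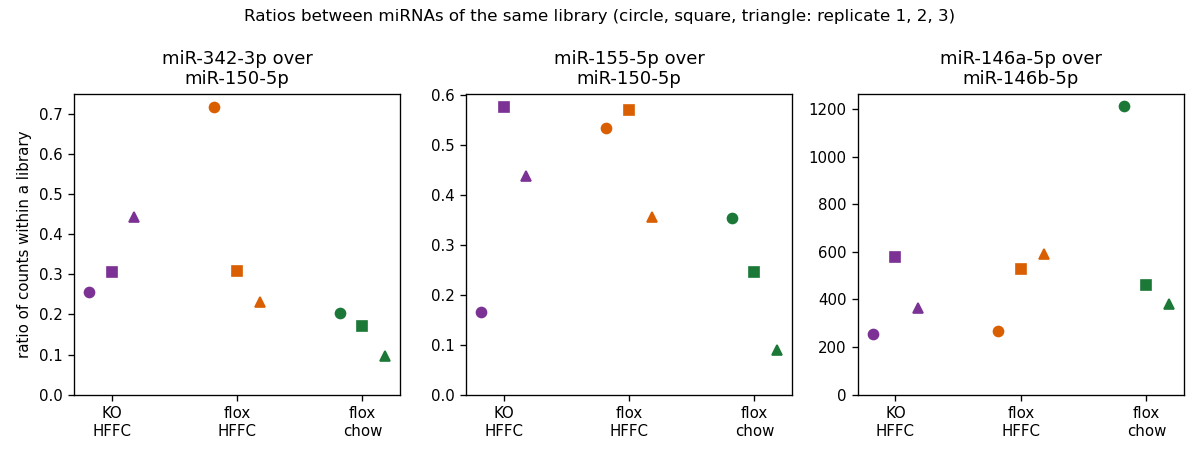
Ratio of the counts of one miRNA to those of another within each library (linear axes from 0), by group. The ratio of miR-342-3p to miR-150-5p lies at 0.231 to 0.718 in the HFFC libraries of both genotypes and at 0.0963 to 0.204 in flox chow, whereas the other ratios overlap or nearly touch between groups.

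The members did not vary as a block across libraries. Over the 10 pairs of members and the 9 libraries, Pearson's r of log2 CPM ran from −0.64 for miR-155-5p with miR-150-5p (Spearman's rho −0.63) to 0.69 for miR-146b-5p with miR-342-3p (rho 0.53). miR-155-5p and miR-342-3p had an r of 0.60 (rho 0.55). The 2 miRNAs with the miR-146 seed had an r of 0.35 (rho 0.43). Without the 2 libraries farthest from the median of the first-named miRNA these values were −0.42, 0.60, 0.56 and 0.19. Among all 30628 pairs of tested entries the middle 90% of r ran from −0.63 to 0.64. The 9 libraries share their group structure and scaling, so these values are descriptions with no test.

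Each member was also compared with the 247 other tested entries for the likeness of its pattern over the 9 libraries. The nearest to miR-155-5p were miR-27a-3p (r = 0.88, rho = 0.88), miR-450a-5p (r = 0.88, rho = 0.95) and miR-339-5p (r = 0.83, rho = 0.85). miR-146a-5p was most like the myeloid miR-223-3p (r = 0.89, rho = 0.82), then miR-187-3p (r = 0.83, rho = 0.90) and miR-214-5p (r = 0.83, rho = 0.80). miR-150-5p was most like miR-152-3p (r = 0.95, rho = 0.88), then miR-194-5p (r = 0.86, rho = 0.70) and miR-16-5p (r = 0.74, rho = 0.52). Without the 2 libraries farthest from the median of miR-150-5p, the r of the last of these was −0.20 and that of miR-194-5p 0.29, so both rested on those libraries. miR-146b-5p and miR-342-3p had no neighbour above r = 0.77. Theirs were miR-802-5p (r = 0.77, rho = 0.63), miR-486a-5p (r = 0.75, rho = 0.73) and miR-574-5p (r = 0.69, rho = 0.63) for miR-146b-5p. For miR-342-3p they were miR-181a-5p (r = 0.76, rho = 0.80), miR-99b-3p (r = 0.75, rho = 0.75) and miR-802-3p (r = 0.75, rho = 0.72). Being the highest of 247, these values are high by selection.

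A list of 24 other miRNAs linked to NF-κB or expressed in leukocytes showed no common direction with the diet. Of the 24, 22 were listed and 17 were tested. In flox HFFC against flox chow the log2 fold change was above 0 for 7 and below 0 for 10, and its median of −0.02 equalled that of all entries. In KO HFFC against flox HFFC 6 were positive and 11 negative (median −0.41, against −0.03 over all entries), and in KO HFFC against flox chow likewise 6 and 11 (median −0.20, against −0.05). edgeR called 0 of the 17 in each comparison, in either direction (lowest adjusted p 0.985, 0.232 and 0.140).

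The 4 most abundant of that list were miR-21a-5p, induced in inflammation and fibrosis, miR-181a-5p, a regulator of lymphocyte development, miR-29b-3p, which targets collagens, and miR-191-5p. Their log2 fold changes in flox HFFC over flox chow were 0.56 ± 0.41 (SE), 0.37 ± 0.31, −0.28 ± 0.40 and 0.03 ± 0.44 in that order. In KO HFFC over flox HFFC they were −0.65 ± 0.42, 0.20 ± 0.31, −0.42 ± 0.40 and 0.35 ± 0.44. In KO HFFC over flox chow they were −0.09 ± 0.41, 0.57 ± 0.31, −0.70 ± 0.40 and 0.37 ± 0.44. None passed.

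**Figure D5:**
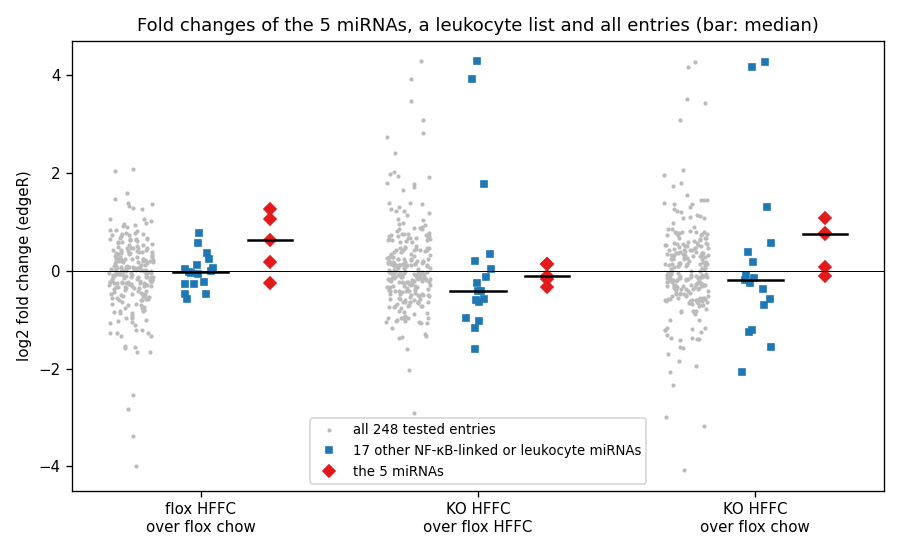
Log2 fold changes (edgeR) in the 3 comparisons for all 248 tested entries (grey), the 17 tested miRNAs of the list linked to NF-κB or leukocytes (blue) and the 5 miRNAs (red), with bars at the medians of the last 2. With the diet the median of the 5 miRNAs is 0.63 and that of the list −0.02.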

How the data were processed

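Liver pieces were treated with collagenase and exosomes collected from their medium in steps of centrifugation. The labels describe Trizol extraction of tissue and adapters with unique molecular identifiers, the study's methods another small RNA kit, and which applies is not stated, nor is the genome build, the counting tool or any collapse of identifiers. Known miRNAs were matched to miRBase, with Bowtie2 among the tools in the submitters' notes. The authors deposited 1 table, with raw counts of each mature miRNA and RPM values, which are the counts per 1000000 tags of a library. Group means that the authors deposited were not used. The study tested with DEGseq, which pools a group.

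Deposited counts were tested with edgeR 4.0.16 in R 4.3.3 (TMM scaling, filterByExpr at 10 counts, quasi-likelihood F test with robust fitting, 9 libraries in 1 fit). Benjamini-Hochberg adjustment covered the 248 entries, with a threshold of 0.05. The SE is the log2 fold change over the root of F, and intervals are 1.96 SE on each side. They are therefore approximate and somewhat narrower than the F test would give with so few libraries. Shares were compared by exact two-sided permutation tests, and single shares carry 95% Wilson intervals. limma 3.58.1 (voom) and DESeq2 1.42.0 were alternatives, beside other scalings, filters and left-out libraries. The fit was also run on simulated counts that had the same relative spread for every entry, unlike these data, and its outcome is not reported here. A count of 0 allows up to 3 counts. No 2 replicates agreed within sampling noise, so the errors include more than counting, and 0 other columns of sample values were left unmatched. The labels do not say whether replicates are separate mice, so p-values measure the spread between these libraries.

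Members, their opposite arms, the list of 24 miRNAs with its 4 most abundant, and the 3 entries most like each member were named by rule. Members and lists were chosen with earlier results of these data known.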

Additional observations from a re-analysis of the deposited data

How the results depend on the processing

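Over the 15 log2 fold changes of the 5 miRNAs, 327 alternative values were computed. No member passed the threshold in any of them (lowest adjusted p 0.293), 298 kept their direction and 29 changed sign. miR-155-5p and miR-342-3p in flox HFFC against flox chow, and miR-155-5p, miR-342-3p and miR-146b-5p in KO HFFC against flox chow, kept theirs under every alternative. The median over all entries was moved by upper-quartile factors (−0.14 in flox HFFC and −0.22 in KO HFFC, each against flox chow) and by total counts without factors (0.21 in KO HFFC against flox HFFC, 0.18 against flox chow). No cause of a change was tested beyond what a setting leaves out or rescales.

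The number of entries called, 0 in each comparison, was 0 under every alternative with the diet. In KO HFFC against flox HFFC it was 1 with library tags as size, 5 with DESeq2 and 7 without a low-count filter, and 0 to 5 with 1 library left out (5 without KO HFFC replicate 1, 1 without flox chow replicate 3). In KO HFFC against flox chow it was 1 with total counts, 4 with library tags, 6 with DESeq2, 10 without a filter and 2 with known entries only, and 0 to 5 with 1 library left out (5 without KO HFFC replicate 1). The numbers of replicates in the labels did not pair the libraries throughout (r from −0.13 to 0.37 over 9 pairs of the same number, 4 of them over 0.1), and not every library correlated best with its own number. The libraries numbered 3 correlated with each other at r of 0.20, 0.23 and 0.25. The highest r between groups, 0.42, was that of KO HFFC replicate 2 with flox chow replicate 1. Whether libraries of the same number belong together was not tested further. With the replicate number as a block 0 entries were called in each comparison.

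Reversed values of flox HFFC over flox chow were, with 1 library left out, −0.074 to 0.25 for miR-146a-5p, −0.63 to 0.17 for miR-150-5p and −0.54 to 0.24 for miR-191-5p. Without both libraries of fewest counts miR-150-5p was at 0.22 and miR-191-5p at −0.54. miR-191-5p was also at −0.12 (upper quartile), −0.0054 (RLE), −0.029 (total counts), −0.31 (library tags), −0.025 (without miR-122-5p), −0.14 (voom), −0.022 (no filter), −0.021 (6 libraries) and −0.029 (replicate block).

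Those of KO HFFC over flox HFFC were, with 1 library left out, −0.31 to 0.11 for miR-146a-5p, −0.51 to 0.53 for miR-146b-5p, −0.17 to 0.27 for miR-150-5p, −0.44 to 0.36 for miR-342-3p and −0.041 to 0.40 for miR-181a-5p. miR-146a-5p was at 0.16 with total counts, 0.0023 without miR-122-5p and 0.10 with at least 10 counts in every library. miR-342-3p was at 0.094 and 0.043 under the first and last of these settings, and at 0.33 without both libraries of fewest counts. With total counts both lay below the median of all entries, 0.21.

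Those of KO HFFC over flox chow were, with 1 library left out, −0.22 to 0.24 for miR-146a-5p, −0.54 to 0.26 for miR-150-5p and −0.76 to 0.19 for miR-21a-5p. miR-146a-5p was at −0.12 with upper-quartile factors, −0.033 with 6 libraries and −0.090 without both libraries of fewest counts. miR-150-5p was at 0.16 with total counts, 0.025 with library tags, 0.067 with at least 10 counts in every library and 0.27 without both libraries. miR-21a-5p was at 0.15 with total counts and 0.12 with at least 10 counts in every library.

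Differences in share, in percentage points, changed sign with 1 library left out for miR-146a-5p (−0.0655 to 0.327) and miR-150-5p (−0.0151 to 0.000726) in flox HFFC against flox chow. In KO HFFC against flox HFFC they did so for miR-155-5p (−0.00352 to 0.00271), miR-146b-5p (−0.000508 to 0.00212) and miR-342-3p (−0.00179 to 0.00548), and for miR-150-5p in KO HFFC against flox chow (−0.00329 to 0.0125). With library tags as denominator, KO HFFC minus flox HFFC was −0.000997 for miR-146a-5p and −4.97e-06 for miR-342-3p. miR-146b-5p had no value where at least 10 counts were required in every library. miR-146b-5p had the fewest counts of the members, 6 to 36 a library, and the largest SE, 0.69, 0.67 and 0.68 in the 3 comparisons.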

Other observations

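In KO HFFC the list of other miRNAs linked to NF-κB or leukocytes held 2 entries far above the rest, named here after their values had been seen. miR-125a-5p held 19, 70 and 95 counts in KO HFFC, 0, 7 and 6 in flox HFFC, and 3, 8 and 1 in flox chow. Its log2 fold change was 3.92 ± 0.90 (SE) in KO HFFC over flox HFFC and 4.16 ± 0.92 in KO HFFC over flox chow, the lowest p of all 248 entries in both comparisons, and it did not pass (edgeR adjusted p = 0.232 and 0.140). It had met the low-count filter only through its KO HFFC libraries, so that filter favoured its fold change and its place by p. miR-181b-5p held 40, 440 and 889 counts in KO HFFC, 34, 24 and 6 in flox HFFC, and 9, 40 and 21 in flox chow. KO HFFC replicates 2 and 3 carried that difference, and it did not pass either (edgeR adjusted p = 0.232 and 0.275). miR-125b-5p, also named after its values had been seen, was at 1.77 ± 0.50 over flox HFFC and 1.30 ± 0.49 over flox chow. In CPM it was higher in every KO HFFC library, and it did not pass (edgeR adjusted p = 0.232 and 0.345). Of the 17 tested miRNAs of the list, 11 had negative log2 fold changes in each of these comparisons. Over flox chow, miR-511-3p was at −2.07 ± 0.83 and miR-19b-3p at −1.56 ± 0.57 (edgeR adjusted p = 0.345 for each). In CPM, KO HFFC was higher without overlap for 3 of the 17 and lower for 4 against flox chow. Over all tested entries these were 8.06% and 9.68%. Against flox HFFC it was higher for 2 and lower for 2, beside 6.85% and 7.26% of all tested entries. Both comparisons use the same KO HFFC libraries.

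Leukocyte miRNAs were counted unevenly. miR-223-5p, below the filter, held 6, 8 and 8 counts in KO HFFC, 2, 13 and 1 in flox HFFC, and 7, 20 and 3 in flox chow. miR-142a-3p held 7, 11 and 11 counts in KO HFFC, 11, 19 and 26 in flox HFFC, and 38, 40 and 4 in flox chow. From the other arm of that hairpin, miR-142a-5p held 44, 49 and 35 in KO HFFC, 20, 44 and 54 in flox HFFC, and 54, 83 and 21 in flox chow. These entries were chosen after their values had been seen, and the arms were not tested against each other.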
